A study of Mus musculus with 4 samples.

Results

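Collagen genes encode the chains that wind by threes into the collagen molecules of connective tissue, and 43 of them were measured here on arrays of whole trachea and whole oviduct of Gemc1-null and wild-type (WT) mice. The members were all genes of the platform annotation with a symbol of the form Col, digits, a, digits. The annotation held 44 of them among 30718 genes that could be named. Col7a1, the anchoring fibril chain, was the member not analysed here, because its probe set lists a second gene. Each of the 43 was read by 1 probe set.

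The study had 4 groups with 1 array each. The trachea labelled Gemc1-null and the WT trachea were dissected from males aged 39 days, and the oviduct labelled Gemc1-null and the WT oviduct from females aged 65 days, all of a mixed C57BL/6 x 129 background, freshly isolated and untreated. Per its title, the study asked about the part of Gemc1 (current symbol Gmnc), a geminin relative known to start the programme of multiciliated cells. Which part of the gene these mice lack, and whether a sample was 1 animal or a pool, is not stated in the labels. The null mice carry the genotype in all tissues as far as the labels say, with no promoter or Cre line named.

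Collagens fall into families by the shape they build. Fibrillar chains make the striped fibrils that bear load in the walls of hollow organs and in cartilage, fibril-associated chains sit on their surface, and collagen IV makes the sheet of basement membranes under epithelium, muscle and vessels. In the trachea, rings of hyaline cartilage hold the airway open. The chains known from cartilage are those of collagens II, IX and XI, with collagen X in the hypertrophic zone, whereas the wall of the oviduct is stroma and smooth muscle with no cartilage.

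All levels are log2 RMA signals, so a difference of 1 is 2-fold. Every genotype difference sets the array labelled Gemc1-null (labelled null for short) over the WT array of that tissue. With 1 array a group, such a difference has no replicate, no error and no test, and 4 arrays give little precision. In whole tissue, fewer cells of a type and less RNA per cell cannot be told apart. The level filter kept a gene for a pair of arrays if 1 or both read it at or above the median of the whole array. Array medians ran from 5.91 to 6.00 and negative-control medians from 5.74 to 5.98. On WT trachea the array median, 5.91, lay below the negative-control median, 5.98, so that passing there is no sign of detection. Arrays are called by their labels. The probe set of Gmnc stood at 4.63 on the trachea array labelled null and 5.90 on WT trachea, but at 8.86 on the oviduct array labelled null and 6.11 on WT oviduct, which goes against the oviduct label unless the probes lie outside the deleted part. All 8 motile cilia markers measured were at least 2-fold lower on the array labelled null in both tissues (median -3.86 in trachea and -4.31 in oviduct). Every genotype direction below rests on those labels.

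**Figure D1:**
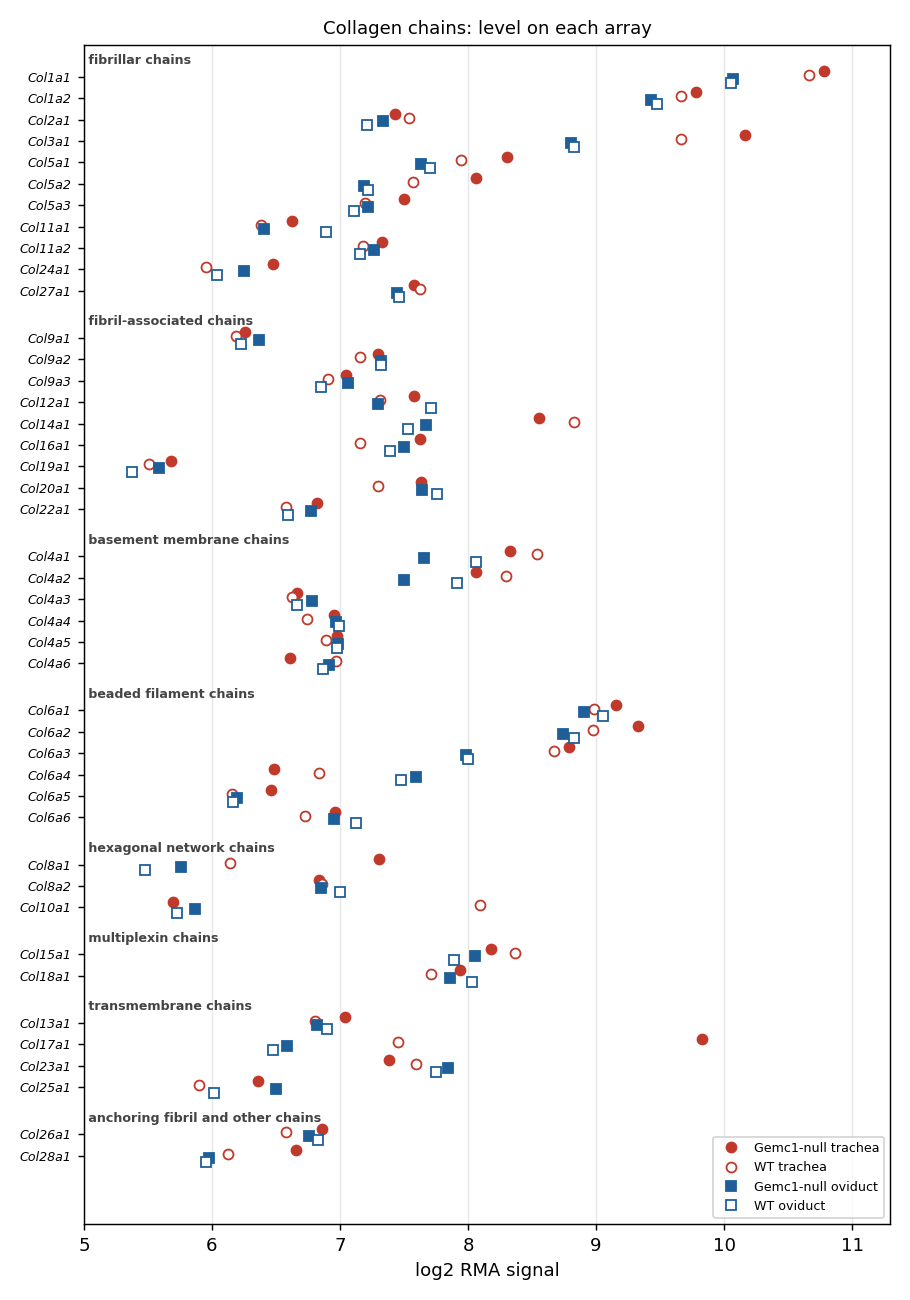
Level of each of the 43 collagen chains on the 4 arrays, as log2 RMA signal on the x axis, with 1 row per chain, grouped by family. Filled circles are the trachea labelled Gemc1-null, open circles WT trachea, filled squares the oviduct labelled Gemc1-null and open squares WT oviduct; for most chains the 4 points lie close together, and Col10a1, Col17a1 and Col8a1 each have 1 trachea point far from the other. Levels of different chains come from different probes and are not comparable with each other.

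Most collagen chains differed little between the genotypes, in either tissue. In trachea 40 of the 43 members differed by less than 1.5-fold (93.0%, against 74.8% of all genes past the filter), and in oviduct all 43 did (100%, against 92.0%). Of the 42 members past the filter in trachea, 1 was at least 2-fold lower, Col10a1, where 7.75% of 20178 genes were at least 2-fold lower. Another 2 were at least 2-fold higher, Col17a1 and Col8a1, where 6.33% of genes were. Both shares of the members were thus below those of the genes at large. Members below 0 numbered 11 of 43 in trachea (47.3% of genes were) and 20 of 43 in oviduct (39.7%). In oviduct 39 members passed the filter and 0 were past 2-fold, against 2.75% of 19726 genes lower and 0.811% higher. The members' median difference was 0.17 in trachea and 0.01 in oviduct, beside 0.03 and 0.05 over all genes past the filter.

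**Figure D2:**
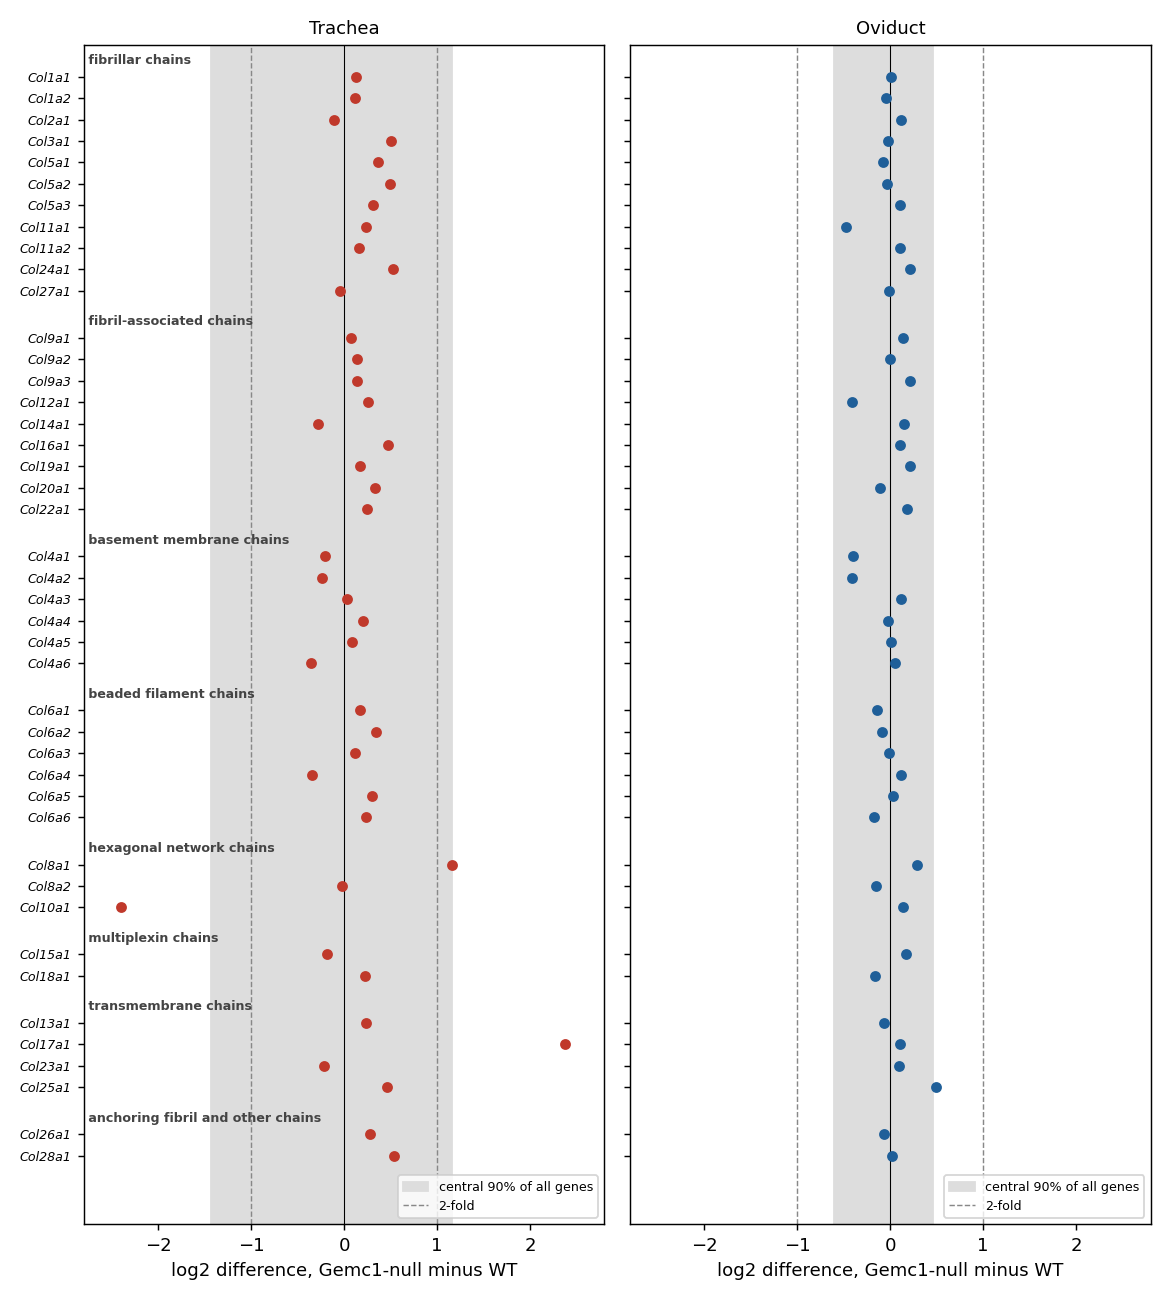
Log2 difference of each collagen chain, array labelled Gemc1-null minus WT array, in trachea (left) and oviduct (right), 1 array per group. The grey band holds the central 90% of all genes past the level filter (-1.43 to 1.16 in trachea, -0.61 to 0.46 in oviduct) and dashed lines mark 2-fold; only Col10a1, Col17a1 and Col8a1 lie past a dashed line, all in trachea.

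The fibrillar chains, those of the wall among them, stayed within 1.5-fold between genotypes in both tissues. Col1a1, a chain of the main fibril of connective tissue, stood at 10.78 on the trachea array labelled null and 10.66 on WT trachea, and at 10.07 on the oviduct array labelled null and 10.06 on WT oviduct. Its partner chain Col1a2 stood at 9.78 and 9.66 in trachea and at 9.43 and 9.48 in oviduct, labelled null first. Both chains of collagen I thus differed by at most 0.12 between genotypes in either tissue. Col3a1, the chain of the fibrils of distensible walls, was at 10.16 on the trachea array labelled null and 9.66 on WT trachea, a difference of 0.50, and at 8.80 and 8.83 in oviduct. Col5a2, a chain that helps start fibrils, was at 8.07 against 7.57 in trachea and at 7.19 against 7.22 in oviduct. Its partner Col5a1 differed by 0.36 in trachea and -0.08 in oviduct. Of the 11 fibrillar chains, 2 were below 0 in trachea (median 0.24) and 6 in oviduct (median -0.01). Among all genes past the filter 47.3% and 39.7% were below 0, and among the 43 members 11 and 20, so the trachea tilt is not particular to fibrillar chains.

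Col3a1 and Col5a2 are neighbours on chromosome 1. Their differences were 0.50 and 0.50 in trachea and -0.02 and -0.03 in oviduct. The RefSeq gene table holds 8 such pairs of adjacent members, counting protein-coding genes. Col6a2 and Col6a1, on chromosome 10, differed by 0.35 and 0.17 in trachea and by -0.08 and -0.15 in oviduct. The pairs did not all move alike: Col4a6 and Col4a5, head to head on the X chromosome, differed by -0.36 and 0.08 in trachea and by 0.05 and 0.01 in oviduct.

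The signals of the chains known from cartilage did not separate the trachea from the oviduct, with Col10a1 as the exception. Col2a1, the fibril chain of hyaline cartilage, stood at 7.43 on the trachea array labelled null and 7.54 on WT trachea, and at 7.33 and 7.21 in oviduct, a tissue with no cartilage. Col9a1, Col9a2 and Col9a3, the chains of the collagen that coats cartilage fibrils, lay between 6.19 and 7.32 on the 4 arrays. Their differences of WT trachea over WT oviduct were -0.04, -0.16 and 0.06. Col11a1 stood at 6.62 and 6.38 in trachea and at 6.41 and 6.89 in oviduct, again labelled null first, and Col11a2 at 7.33 and 7.18 in trachea and 7.26 and 7.16 in oviduct. The probe sets of these chains read about as high in oviduct as in trachea. Whether they read the transcripts of these chains was not tested, so like signals do not show like expression in the tissues. In the list of 8 cartilage chains the median difference between genotypes was 0.10 in trachea and 0.11 in oviduct.

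Col10a1 was the collagen with the lowest difference in trachea. It encodes the short chain of collagen X, the collagen of hypertrophic chondrocytes. Its level was 5.69 on the trachea array labelled null, below the negative-control median of 5.74, against 8.09 on WT trachea. In oviduct it stood at 5.86 on the array labelled null and 5.72 on WT, both near background. WT trachea was therefore the single array of the 4 with a Col10a1 signal clear of background. Against the negative-control median, Col10a1 was at least 5.09-fold lower on the trachea array labelled null.

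Other cartilage genes were split in the same pair of arrays. Of 16 cartilage markers measured, 14 passed the filter in trachea. Of those 14, 3 were lower by 2-fold or more and 2 were higher, where 7.75% and 6.33% of all genes past the filter were. The median over the list was 0.02. Chad, the cartilage matrix protein chondroadherin, was at 6.94 on the array labelled null and 11.41 on WT trachea. Cytl1, a secreted protein of chondrocytes, was at 7.08 against 9.19, and Acan, the core protein of aggrecan, at 5.97 against 7.23. On the higher side were Sox6, a transcription factor of chondrocytes and of muscle fibres, at 8.93 on the array labelled null against 6.79 on WT, and Prg4, the lubricin of joint surfaces, at 8.94 against 6.83. Matn1, a matrilin of tracheal cartilage, stood at 6.45 and 6.22 in trachea and at 6.38 and 6.32 in oviduct. Chad is no clean cartilage marker on these arrays, since it read 9.18 and 8.71 in oviduct. Matn3, Cnmd and Ibsp lay below the negative-control median on both trachea arrays. In oviduct 1 of the 16 was past 2-fold, where 2.75% of genes were lower and 0.811% higher. That gene was Cnmd, which encodes chondromodulin, at 5.67 on the array labelled null, below background, against 8.10 on WT oviduct, at least 4.94-fold lower. The log2 of the list's summed signal was 11.16 on the trachea array labelled null and 12.20 on WT trachea, against 11.46 and 11.21 in oviduct. Chad alone, at 11.41, made up most of the sum on WT trachea. The lower sum on the trachea array labelled null is therefore no drop across the list, whose median difference was 0.02. Adipocyte markers were lower on the trachea array labelled null (5 of 6 at least 2-fold, median -2.56), and lymphocyte markers too (6 of 6, median -4.29). The share of all genes at least 2-fold lower there was 7.75%. What part the dissected surroundings of the airway have in the Col10a1 difference was not tested.

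The promoter of Col10a1 is shown because this is the collagen with the lowest difference. The window runs from 250 bases before to 50 after the RefSeq start (GRCm38.p6, chr10:34389731-34390030, plus strand), 5′ to 3′, with the letters TATAAA in capitals:
Col10a1: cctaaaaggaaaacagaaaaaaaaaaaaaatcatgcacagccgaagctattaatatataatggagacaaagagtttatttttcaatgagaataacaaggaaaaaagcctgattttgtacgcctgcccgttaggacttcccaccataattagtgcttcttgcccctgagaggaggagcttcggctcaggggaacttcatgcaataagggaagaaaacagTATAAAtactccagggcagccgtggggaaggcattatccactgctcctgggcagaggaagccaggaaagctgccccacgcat
TATAAA starts at -32, counted from the annotated start. Searched on both strands, it was found in 13.6% of all 32851 windows of this length in the RefSeq table, and 5 of the 35 collagen genes with a window there held it. GC content of the window was 44.3%, against a median of 52.7% over all windows. A match of letters is a description of the window and says nothing about which factor acts there.

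Col17a1 was the collagen with the highest difference in trachea. It encodes a transmembrane collagen of hemidesmosomes, the rivets that fix basal epithelial cells to the basement membrane. Its level was 9.83 on the trachea array labelled null and 7.45 on WT trachea, a 5.20-fold higher level with both arrays clear of background. In oviduct it stood at 6.59 on the array labelled null and 6.48 on WT.

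Markers of basal and squamous epithelium were higher on the same trachea array. All 8 measured were at least 2-fold higher (median 5.65), among them Krt5 at 12.54 against 9.52 and Trp63, the regulator of basal cells, at 9.03 against 6.92. Krtdap, Tgm3 and Sprr3, genes of differentiating squamous cells, lay below the negative-control median on WT trachea and at 11.92, 12.06 and 8.83 on the array labelled null. The log2 of the summed signal of the list was 15.05 on the array labelled null and 10.28 on WT trachea. Other hemidesmosome genes were a list added after the data were seen. Of its 7 measured genes 4 were at least 2-fold higher (6.33% of all genes past the filter were), with a median of 1.02. The 4 were Dst at 9.66 against 8.48, Lama3 at 8.06 against 6.89, Itgb4 at 9.98 against 8.88 and Plec at 9.65 against 8.64. In oviduct 0 of these 7 were past 2-fold (median 0.14), and the basal and squamous markers had a median of 0.10. The part of the basal and squamous markers in the Col17a1 difference was not tested.

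Col17a1 has a window with the same letters, given for comparison (GRCm38.p6, chr19:47691993-47692292, minus strand, read 5′ to 3′ along the gene), TATAAA in capitals:
Col17a1: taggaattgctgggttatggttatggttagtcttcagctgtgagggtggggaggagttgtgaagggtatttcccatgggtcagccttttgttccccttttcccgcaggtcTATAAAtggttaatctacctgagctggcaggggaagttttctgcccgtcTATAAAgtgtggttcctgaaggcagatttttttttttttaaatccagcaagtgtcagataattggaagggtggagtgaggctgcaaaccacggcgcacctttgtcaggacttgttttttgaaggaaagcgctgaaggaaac
Here TATAAA starts at -140 and at -91. The RUNX core TGTGGT starts at -84, a motif held on either strand by 16.8% of all windows and in 3 collagen genes. Neither the CCAAT letters (37.4% of windows), the GC box GGGCGG (35.7%) nor the AP-1 letters TGANTCA (7.81%) were in the Col10a1 window, and Col17a1 held CCAAT on the opposite strand at -31.

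Col8a1 was the remaining member past 2-fold. It encodes a short chain of the hexagonal network of vessel walls and of Descemet's membrane in the eye. It stood at 7.30 on the trachea array labelled null and 6.14 on WT trachea, the WT value being close to that array's negative-control median of 5.98, a 2.23-fold higher level. In oviduct it was 5.76 on the array labelled null and 5.47 on WT, both below background. Its partner chain Col8a2 stood at 6.83 and 6.86 in trachea. Endothelial markers in trachea were below 0 in 7 of 7 (median -0.65), where 47.3% of genes past the filter were. Pecam1 stood at 7.60 on the array labelled null against 9.48 on WT, and Plvap at 7.64 against 8.86. Of 8 smooth muscle markers 6 were below 0 in trachea (median -0.76). Past 2-fold, 3 of these 8 were lower and 1 was higher, where 7.75% and 6.33% of genes past the filter were. Whether vessel content bears on the Col8a1 difference was not tested.

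Skeletal muscle markers were also higher on the trachea array labelled null. All 10 were at least 2-fold higher there (median 5.85), and 6 of the 10 lay below the negative-control median on WT trachea. The log2 of their summed signal was 15.53 on the array labelled null and 10.23 on WT trachea. Collagens known from muscle differed by less than 1.5-fold. Col6a1, Col6a2 and Col6a3, the chains of the beaded filament around muscle fibres and many other cells, differed by 0.17, 0.35 and 0.12. Col22a1, a chain known from the junction of muscle and tendon, was at 6.82 on the array labelled null and 6.58 on WT. Lama2, the laminin chain of muscle basement membrane, was at 9.47 against 8.40, and Thbs4, a matrix protein of tendon and muscle attachments, at 10.40 against 8.39.

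**Figure D3:**
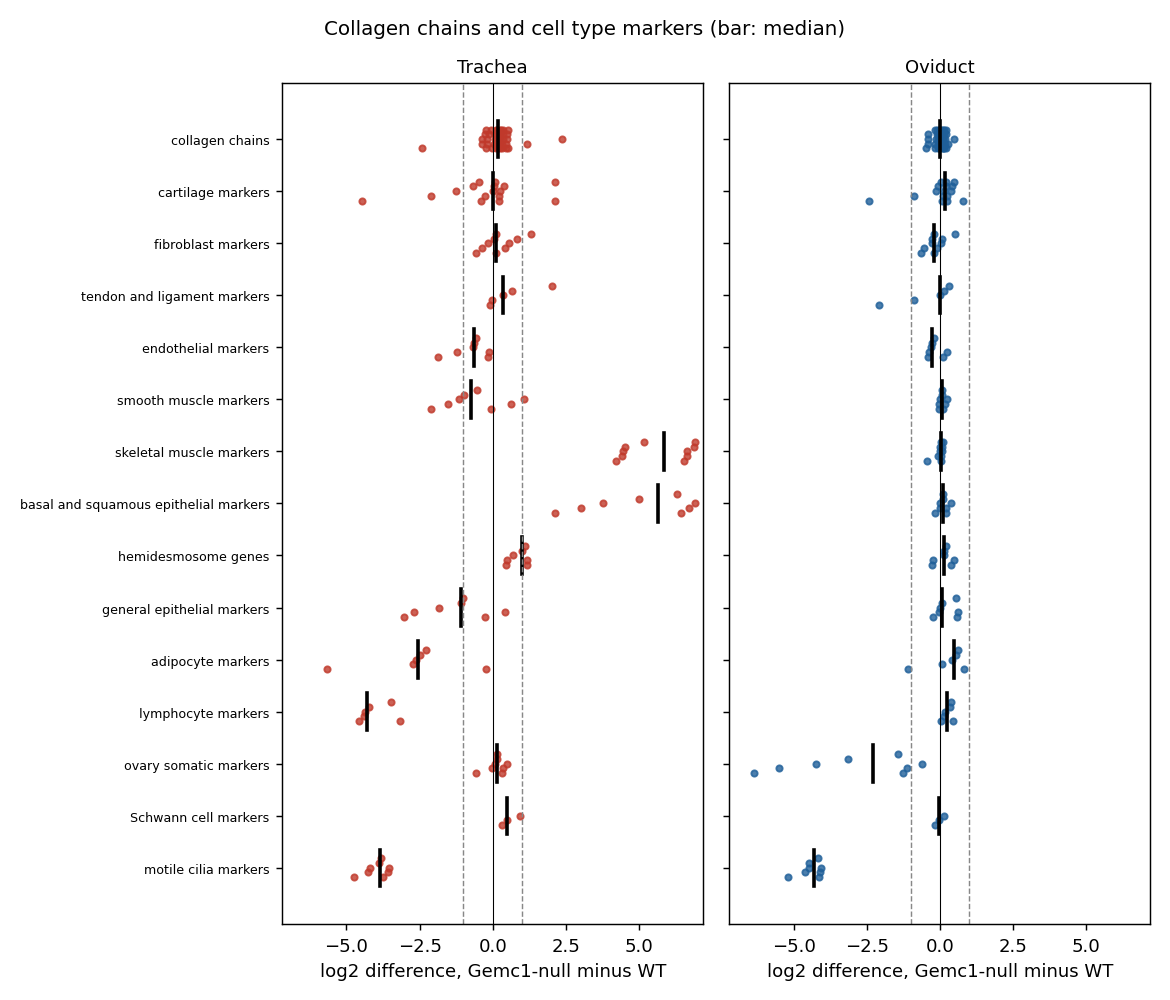
Log2 difference, array labelled Gemc1-null minus WT array, of the collagen chains and of each cell type marker list, 1 point per gene and a bar at the median, in trachea (left) and oviduct (right). Most collagen chains lie near 0 in both panels, while skeletal muscle (median 5.85), basal and squamous (5.65), lymphocyte (-4.29) and motile cilia (-3.86) markers lie far from 0 in trachea, and ovary somatic (-2.28) and motile cilia (-4.31) markers in oviduct.

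Among the basement membrane chains, Col4a1 and Col4a2 were lower by nearly the same amount on the oviduct array labelled null. Col4a1, which with Col4a2 makes the ubiquitous form of collagen IV, stood at 7.66 on the oviduct array labelled null and 8.06 on WT oviduct, and at 8.33 and 8.54 in trachea. Col4a2 stood at 7.50 against 7.91 in oviduct and at 8.06 against 8.30 in trachea. The pair therefore differed by -0.41 and -0.41 in oviduct and by -0.21 and -0.24 in trachea, all short of 1.5-fold. Col4a3, Col4a4, Col4a5 and Col4a6, the chains of specialised membranes such as that of the kidney filter, differed by 0.12, -0.02, 0.01 and 0.05 in oviduct. In trachea those 4 lay between -0.36 and 0.21.

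The windows of Col4a1 and Col4a2 are printed because both genes, read in opposite directions from a shared stretch of chromosome 8, gave nearly equal differences. The annotated starts lie 21 bases apart, and 78 bases, in capitals, belong to both windows (GRCm38.p6, chr8:11312777-11313076, minus strand, for Col4a1 and chr8:11312555-11312854, plus strand, for Col4a2), each 5′ to 3′ along its gene:
Col4a1: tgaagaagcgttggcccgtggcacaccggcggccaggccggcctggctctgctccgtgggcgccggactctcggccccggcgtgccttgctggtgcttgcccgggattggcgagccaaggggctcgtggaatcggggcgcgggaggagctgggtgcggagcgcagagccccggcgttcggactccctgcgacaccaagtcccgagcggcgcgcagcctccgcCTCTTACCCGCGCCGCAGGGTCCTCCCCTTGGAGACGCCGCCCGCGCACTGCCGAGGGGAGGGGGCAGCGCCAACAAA
Col4a2: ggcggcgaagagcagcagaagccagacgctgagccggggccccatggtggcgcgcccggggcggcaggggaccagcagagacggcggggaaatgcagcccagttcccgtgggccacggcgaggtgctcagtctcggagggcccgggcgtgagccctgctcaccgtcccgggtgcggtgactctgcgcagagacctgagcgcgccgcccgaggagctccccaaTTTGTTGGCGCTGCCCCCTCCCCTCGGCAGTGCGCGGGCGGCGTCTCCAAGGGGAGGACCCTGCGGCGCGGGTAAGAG
GC content was 74.0% and 73.7%, against a 95th percentile of 73.7% over all windows. Neither holds TATAAA. The GC box letters start at 10 in Col4a1, on the opposite strand, and at -192, -48 and 8 in Col4a2, the second of these on the opposite strand. Collagen genes with such a GC box numbered 22 of 35, and 35.7% of all windows held it. The CCAAT letters, held by 37.4% of all windows, start at -145 in Col4a1, on the opposite strand, and at -32 in Col4a2.

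Partners of collagen IV in the basement membrane were mostly below 0 in oviduct. Of 15 measured, 10 were below 0 (39.7% of all genes past the filter were), with a median of -0.12. Of the 15, 1 was at least 2-fold lower (2.75% of genes were). That gene was Lama1, the laminin chain of embryonic basement membranes, at 6.86 on the array labelled null and 8.58 on WT oviduct. Lamb1 was at 7.41 against 8.21, Lamc3 at 7.39 against 8.04, and the linker Nid1 at 8.93 against 9.50. Hspg2, which encodes perlecan, was at 9.35 against 9.89, and Pxdn, the peroxidase that cross-links collagen IV and is counted among the cross-linking genes below, at 8.40 against 8.99. Their trachea differences, in the same order, were 0.37, 0.23, -0.25, 0.56, 0.45 and -0.20. In trachea, where Col4a1 and Col4a2 were also below 0, 4 of the 15 partners were (47.3% of genes were), with a median of 0.40. There 2 of the 15 were at least 2-fold higher (6.33% of genes were) and 0 lower. The partner with the highest difference in oviduct was Lamb3, at 6.67 on the array labelled null against 6.30 on WT oviduct. Ovary somatic markers were lower on the same oviduct array, 7 of 8 by at least 2-fold as read (median -2.28; for Fshr, below background on the array labelled null, the bound is 1.16-fold), with Cyp11a1 at 5.71 against 12.05 and Inha at 8.12 against 12.35. The log2 of their summed signal was 9.74 on the oviduct array labelled null and 13.62 on WT oviduct. Endothelial markers were below 0 in 5 of 7 (median -0.27). The part of either in the collagen IV difference was not tested.

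Other fibril-associated and filament chains stayed within 1.5-fold. In oviduct the lowest differences beside collagen IV were those of Col11a1 (-0.48) and of Col12a1 (-0.42), a fibril-associated chain of dense connective tissue, at 7.29 on the array labelled null and 7.71 on WT. In trachea Col12a1 differed by 0.26. Col16a1, another fibril-associated chain, was at 7.63 against 7.16 in trachea and at 7.50 against 7.39 in oviduct. Col25a1, a membrane collagen known from brain and motor neurons, was at 6.36 against 5.90 in trachea and at 6.50 against 6.01 in oviduct, near background on the WT arrays. Col15a1 and Col18a1, the multiplexins of vessel and epithelial basement membranes, differed by -0.18 and 0.23 in trachea and by 0.17 and -0.17 in oviduct. Col19a1 lay below the negative-control median on all 4 arrays.

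Genes that modify, secrete and process collagen mostly stayed under 2-fold, as most genes did. Of 21 measured genes of chain modification and secretion, 2 were at least 2-fold higher in trachea (6.33% of all genes past the filter were). There 0 were lower (7.75%), with a median of 0.13. In oviduct 0 were past 2-fold (median -0.09), against 2.75% of genes lower and 0.811% higher. Plod2, the lysyl hydroxylase of the chain ends, was at 8.12 on the trachea array labelled null and 6.95 on WT trachea. In oviduct it stood at 7.46 against 8.45, just short of 2-fold. P3h2, a prolyl 3-hydroxylase known to act on collagen IV, was at 8.70 against 7.67 in trachea and 9.04 against 9.29 in oviduct. Serpinh1, the collagen chaperone, stood at 8.17 and 8.21 in trachea and at 8.13 and 8.29 in oviduct. P4ha1 and P4hb, subunits of prolyl 4-hydroxylase, differed by 0.17 and 0.55 in trachea and by -0.15 and 0.02 in oviduct.

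Of 12 genes of propeptide processing and cross-linking, 0 were past 2-fold in trachea (median 0.19), where 7.75% of genes were lower and 6.33% higher. In oviduct 1 was at least 2-fold higher (median -0.22), where 0.811% of genes were. Tll1, a procollagen C-proteinase, was at 8.46 on the oviduct array labelled null and 6.86 on WT oviduct, while Bmp1, the main such proteinase, was at 8.48 against 8.75. Pcolce, which enhances that cleavage, was at 8.58 against 9.21 in oviduct and 9.18 against 8.86 in trachea. Lox, the lysyl oxidase of cross-links, differed by -0.33 in trachea and -0.36 in oviduct.

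Among breakdown genes in oviduct the collagenase Mmp8 and the inhibitor Timp4 were lower. Of 12 measured, 10 passed the filter there, and 2 of these were at least 2-fold lower (2.75% of all genes past the filter were). None was at least 2-fold higher (0.811% of genes were), and the median over the 12 was -0.07. Mmp8, the collagenase of neutrophils, was at 4.95 on the array labelled null, below background, against 7.42 on WT oviduct. Timp4, a metalloproteinase inhibitor, was at 6.71 against 9.08 in oviduct and at 7.55 against 8.32 in trachea. The gelatinase Mmp2 differed by -0.56 in oviduct and -0.44 in trachea, and Mmp14, the membrane collagenase, by -0.11 and -0.27. In trachea 0 of the 12 were past 2-fold (median -0.32), where 7.75% of genes were lower and 6.33% higher. The lowest there were Timp4 at -0.77 and the cysteine protease Ctsk at -0.75.

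Collagen receptors were counted as 8 genes. In trachea 1 of them read more than 2-fold lower, where 7.75% of genes were. This was Lair1, a receptor of leukocytes, at 5.35 on the array labelled null, which is below background, against 6.42 on WT. Against the negative-control median it was at least 1.60-fold lower. Itga11, an integrin of fibroblasts, was at 7.34 against 6.78, while the discoidin receptors Ddr1 and Ddr2 differed by 0.30 and -0.26. Receptors past 2-fold in oviduct numbered 0, and Itga2, an epithelial collagen integrin, had the lowest difference at -0.85. Small leucine-rich proteoglycans, which bind fibrils and set their width, were split in trachea. Of 12, 2 were at least 2-fold higher (6.33% of genes were), Lum at 9.30 against 8.28 and Aspn at 9.02 against 8.00. At least 2-fold lower was 1 (7.75% of genes were), Ogn at 8.46 against 9.97. In oviduct 0 of the 12 were past 2-fold. Fibroblast markers had medians of 0.11 in trachea and -0.20 in oviduct over 10 genes, with Thbs2 in trachea, at 8.81 against 7.50, the 1 gene past 2-fold.

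**Figure D4:**
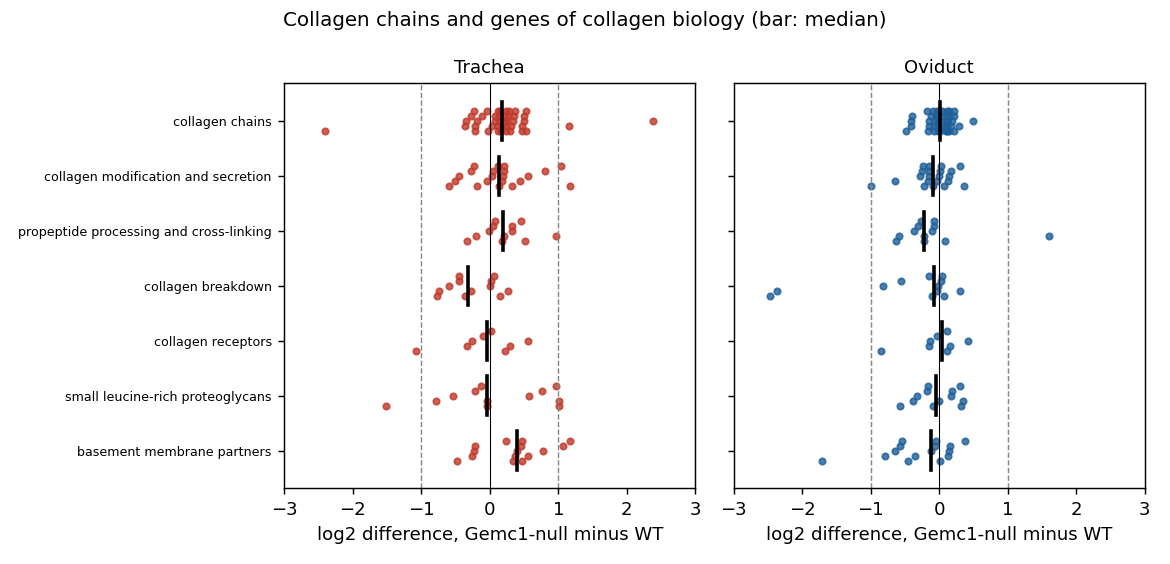
Log2 difference, array labelled Gemc1-null minus WT array, of the collagen chains and of 6 lists of genes of collagen biology, 1 point per gene and a bar at the median, in trachea (left) and oviduct (right), with dashed lines at 2-fold. Medians lie between -0.32 and 0.40 in trachea and between -0.22 and 0.04 in oviduct, and few genes of any list lie past a dashed line.

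The tissues were compared with both genotypes in limma, trachea over oviduct with genotype as a block, which puts 2 arrays against 2. Sex and age differ between the tissues in the same way, so none of the 3 can be told apart. Of 21007 genes 0 passed a limma adjusted p of 0.05 in either direction (0%), members included, and 6 of 42 members were higher and 1 lower at an unadjusted p under 0.05, where 3.83% and 7.43% of genes were. The fit has 1 residual degree of freedom, so that these counts say little about which chains differ.

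Several chains of the wall were higher in trachea in both genotypes. Col14a1, a fibril-associated chain of dermis and tendon, was at 8.55 in trachea and 7.67 in oviduct on the arrays labelled null, and at 8.83 and 7.53 on the WT arrays. Its fitted difference was 1.09 (SE 0.195, limma adjusted p = 0.362). Col3a1, whose levels are given above, had a fitted difference of 1.10 (SE 0.216, limma adjusted p = 0.373), and Col1a1 0.66 (SE 0.152, limma adjusted p = 0.394). Col6a3 was at 8.79 and 7.99 on the arrays labelled null and at 8.67 and 8.00 on WT, trachea first, with 0.73 (SE 0.153, limma adjusted p = 0.377). Each of these 4 was higher in trachea than in oviduct in both genotypes, by less than 3-fold. Col8a1 and Col4a1 were the other members at an unadjusted p under 0.05 on the trachea side, at 1.11 (SE 0.302) and 0.57 (SE 0.159). On the oviduct side, Col6a4, a further chain of the beaded filament, was at 6.49 in trachea and 7.59 in oviduct on the arrays labelled null, and at 6.84 and 7.48 on WT (-0.87, SE 0.204, limma adjusted p = 0.399). Its neighbours Col6a5 and Col6a6 had fitted differences of 0.12 and -0.20.

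Taken by genotype, members at least 2-fold apart between the tissues were counted on each pair of arrays, and some lay near that cut-off. Trachea over oviduct, Col17a1 was 9.47-fold higher on the arrays labelled null and 1.96-fold on WT. Col3a1 was 2.57-fold and 1.78-fold higher, and Col14a1 1.84-fold and 2.46-fold, labelled null first. On the arrays labelled null, Col17a1, Col3a1 and Col8a1 were at least 2-fold higher in trachea (6.82% of 20112 genes were) and Col6a4 at least 2-fold lower (6.12%). On the WT arrays, Col10a1 and Col14a1 were at least 2-fold higher (6.54% of 19996) and 0 members were lower (4.67%). Shares of the members were 7.32% and 2.44% on the arrays labelled null and 4.76% and 0% on WT, near or below those of the genes at large. These tissue differences share their arrays with the genotype differences above, and whether chains differ between the genotypes in this respect was not tested.

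**Figure D5:**
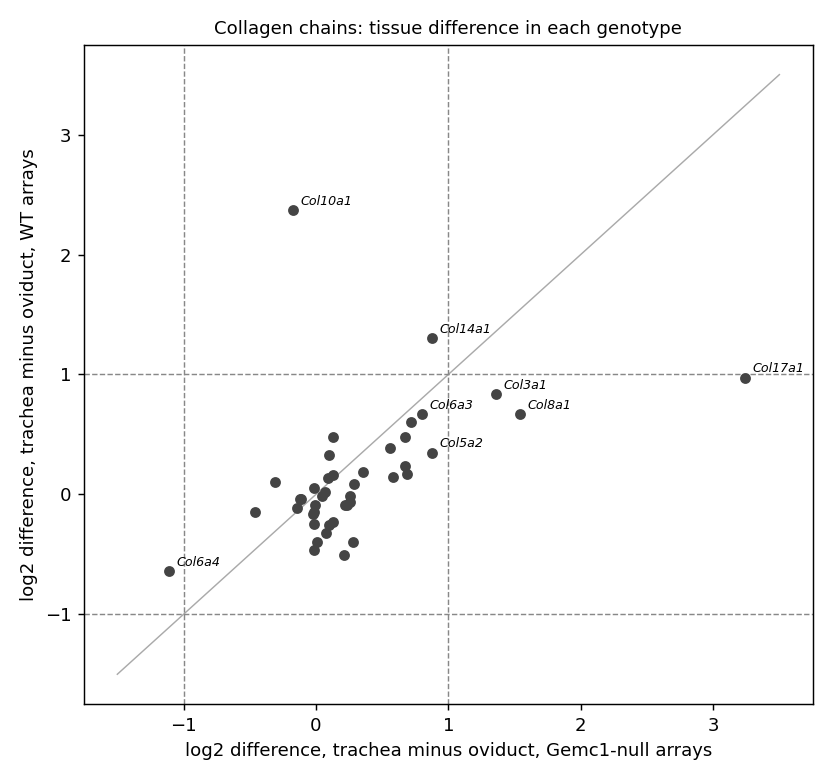
Log2 difference of trachea minus oviduct for each of the 43 collagen chains, on the arrays labelled Gemc1-null (x axis) and on the WT arrays (y axis), with dashed lines at 2-fold and a diagonal of equality. Most chains lie within 2-fold of 0 on both axes, Col17a1 and Col10a1 lie farthest from the diagonal, and Col14a1 and Col3a1 lie high on both axes.

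Taken as a difference between the tissues' genotype differences, trachea over oviduct, Col10a1 was at least 2-fold lower, at -2.54 (7.11% of 21007 genes were), and Col17a1 at least 2-fold higher, at 2.27 (7.27%). This difference has no residual degrees of freedom and no test.

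A genotype difference shared by the tissues was sought in the same limma fit with tissue as a block. No member passed, with 0 of 42 at a limma adjusted p of 0.05 (0% of 21007 genes in each direction) and 0 at an unadjusted p under 0.05 (2.7% of genes lower and 0.804% higher). The lowest limma adjusted p among members was 0.830. Col25a1 had a fitted difference of 0.48 (SE 0.148), Col4a2 -0.32 (SE 0.157) and Col4a1 -0.31 (SE 0.159), each with the same sign in both tissues. Col17a1 and Col10a1, at 1.24 (SE 0.698) and -1.13 (SE 0.777), had wide errors, since the fit's residual is the disagreement between the tissues and both differed in trachea and hardly in oviduct. These errors do not measure the spread between animals.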

How the data were processed

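Biotin-labelled targets of total RNA from 4 samples were hybridised to 1-colour Affymetrix arrays, per the labels' protocols. The authors deposited 1 value per probe set and array, made with RMA per the submitters' processing notes; no version or settings of RMA are stated there. The values the authors deposited are log2 of a log2 signal, since raising 2 to each of them gave numbers with 6 significant digits in 100% of cells (relative tolerance 1e-09), and these powers were used. RMA corrects background and quantile-normalizes, so that a shift shared by most genes is removed.

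Of 65956 transcript clusters 31280 had 1 gene, 1470 listed several or were unresolved and 33206 were not listed, with symbols updated through a RefSeq table (GRCm38.p6). Of 30718 genes 445 had several probe sets, and the one with the highest mean was used. Genes named were all collagen members, described in full where they had the highest means or a 2-fold difference, and per list those with the largest differences, with others of known role.

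Differences within a tissue were counted at 2-fold. The tissues and genotypes were fitted together in limma 3.58.1 (R 4.3.3), with Benjamini-Hochberg adjustment. The fit used 21007 genes at or above the array median on at least 1 array. It has 1 residual degree of freedom and a prior of 1.77. A run on simulated data required only that planted shifts be returned at their mean size. That run does not bear on the errors or p-values of these data. Folds with the dimmer array below its negative-control median are given as "at least", against that median. Alternatives were the fold, the filter, the probe set rule, the scaling, a floor, the prior and the block. The members and lists were chosen with earlier results of these data known.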

Additional observations from a re-analysis of the deposited data

Results flagged for a closer look

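Col10a1 was singled out because its genotype difference had opposite signs in the tissues, -2.40 in trachea and 0.14 in oviduct (array labelled Gemc1-null minus WT array). The oviduct pair did not pass the level filter, so its sign is no readable direction. The trachea difference minus the oviduct difference was -2.54 on the log2 scale. With 1 array per group this difference was not tested. Levels of Col10a1 were near background on 3 of the arrays, at 5.69 in the trachea labelled null and at 5.86 and 5.72 in oviduct, against 8.09 in WT trachea.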

How the results depend on the processing

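The counts of collagens at least 2-fold lower or higher in either tissue were the same without a level filter, with the upper quartile as the filter, with the mean over probe sets, with centred arrays and with values floored at the negative-control median. At 1.5-fold they were also the same. At 3-fold 1 member was higher in trachea, Col17a1, where 2 were at 2-fold. Members whose genotype difference itself differed between the tissues numbered 2 at 2-fold and 5 at 1.5-fold. They numbered 3 with values floored at the negative-control median, which adds Col8a1. The 1.5-fold and floored counts were added after seeing the data. Under 1.5-fold were 88.4% of the members measured, against 72.7% of all genes past the filter. For trachea over oviduct, 5 members had a fitted difference of at least 2-fold higher and 0 lower. The share of all genes past that fitted fold was not computed, so this count is no result about collagens. Among the 5, the fitted 1.10 of Col10a1 averages 2.37 on the WT arrays and -0.17 on the arrays labelled null. On the arrays labelled Gemc1-null alone the counts were 3 and 1, and on the WT arrays alone 2 and 0. For the shared genotype difference 0 members had an unadjusted p under 0.05 in limma, and 1 had without a level filter and 1 with centred arrays, both counts added after seeing the data. No alternative gave a member a limma adjusted p under 0.05, the lowest being 0.170 for trachea over oviduct with no block. Of 86 single differences, centring changed the sign of 4 and the floor of 1, none of them past 2-fold. Leaving out an array leaves no residual degrees of freedom and was not run. No paired analysis was possible within a tissue because each group has 1 array; the fit with tissue as a block is the one given above. Signal over background limits Col10a1, Col8a1, Col19a1, Col24a1 and Col25a1.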
